A study of Homo sapiens with 21 samples.

Results

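The genes described here are 10 genes of the integrated stress response, namely the transcription factor ATF4, its relative ATF5, and ATF3, DDIT3, DDIT4, TRIB3, CHAC1, ASNS, SESN2 and PPP1R15A, which ATF4 is known to control in whole or in part. They were taken by name as known genes of this response and make up 10 of the 58735 genes in the deposited table. RNA-seq was done on MDA-MB-453, a human breast cancer cell line of luminal type. The study asked whether both metals act through the orphan nuclear receptor ESRRB, for which GSK4716 served as agonist and diethylstilbestrol (DES) as antagonist. Of 21 libraries, 3 came from each of 7 groups: an untreated control, 10 mM calcium, 10 μM cadmium, 5 μM GSK4716, 10 μM DES, and 10 μM DES followed by either metal. Each treatment lasted 24 h, and in both combined groups DES was added 3 h before the metal, so the time with DES and the metal cannot be told apart there. Calcium and GSK4716 were given in medium without serum and cadmium in medium with little charcoal-stripped serum, while the labels give 1 control group, so for at least 1 treatment the medium and the agent cannot be told apart. The labels do not say whether the 3 libraries of a group came from separate cultures, so p-values measure only the spread between these samples, which may be technical.

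The integrated stress response begins when a kinase that senses misfolded proteins, missing amino acids, missing heme or double-stranded RNA phosphorylates the translation factor eIF2alpha. Most protein synthesis then slows, while the messenger RNA of ATF4, and those of ATF5, DDIT3 and PPP1R15A, are translated more efficiently, because short reading frames ahead of the coding sequence hold back the ribosome in unstressed cells. ATF4 protein, paired with other leucine zipper factors, switches on genes for amino acid supply, redox defense and, in lasting stress, cell death, so RNA levels show the output of the response better than its trigger.

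Levels are given in FPKM, which divides the fragments of a gene by its length and by the size of the library, so that genes can be set side by side. Libraries held 14435925 to 28424805 fragments on genes (median 18314738). Differences were tested with limma on log2(FPKM + 0.1) over the 14686 genes with a mean of at least 0.5 FPKM, a filter that all 10 genes passed. Adjusted p-values are those of limma after Benjamini-Hochberg adjustment over all genes tested, two-sided, and a gene is called when its adjusted p is under 0.05. A fold change on this scale understates the change of low genes. An exact permutation test of 3 against 3 libraries cannot go below p = 0.1. In RNA from whole cultures, fewer cells that express a gene and less RNA per cell cannot be told apart. The labelled cell line was checked with 7 luminal markers, all of which were present in all 21 libraries, from EPCAM at 50.9 to 190.4 FPKM to KRT19 at 367 to 1315 FPKM. Of 10 markers of blood, vessel, stroma, basal and fat cells, 9 stayed at or under 1.07 FPKM in every library, and COL1A1, the most abundant, lay between 9.34 and 32.7 FPKM. It was above all controls with calcium (log2 fold change 0.49, adjusted p = 0.0703) and with DES (0.73, adjusted p = 0.14), and its part in the values of the 10 genes was not tested. PTPRC, CD3E, PECAM1, CDH5, COL3A1, KRT14 and ADIPOQ were at 0 in 11 or more libraries.

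Promoter sequences were matched for all 10 genes, as 18 RefSeq entries on GRCh38.p14 that each hold 250 bases before and 50 after a start. The C/EBP-ATF response element that ATF4 binds with its partners was searched as TTNCATCA, and the cyclic AMP response element as TGACGTCA, both on either strand, and no member held both. The first was found in 3 of the 18 entries, 1 each of 3 genes (16.7%), and in 3.62% of all 35116 entries, the second in 1 of the 18 (5.56%) and in 1.85%. The matched stretches are shown, 5′ to 3′ on the strand of the gene with the match in capitals, for the members that held a match. A match is a description of the sequence and not of binding, and in the other windows these letters were not found.
ASNS: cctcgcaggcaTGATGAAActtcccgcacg
CHAC1: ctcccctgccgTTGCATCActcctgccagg
ATF3: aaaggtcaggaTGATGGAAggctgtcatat
PPP1R15A: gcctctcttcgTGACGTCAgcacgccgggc
The ASNS stretch lies at chr7:97872458-97872487 on the minus strand, with the match at bases -68 to -61 from the start. The CHAC1 stretch is chr15:40953251-40953280 on the plus strand (match at -209 to -202). The ATF3 stretch is chr1:212565205-212565234 on the plus strand (match at -191 to -184) and the PPP1R15A stretch chr19:48872352-48872381 on the plus strand (match at -58 to -51). In the GENCODE annotation the ATF3 stretch overlaps no exon of its gene, whereas the other 3 also fall in an untranslated stretch of exon in a transcript of the same gene. The spans of genes given below are those of the deposited table, where PPP1R15A starts after its stretch.

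ATF4 itself (chr22:39519695-39522685) was among the most abundant of the 10 in every group. It stood at 158, 129.7 and 213 FPKM in the 3 control libraries, at 184, 202 and 158 with calcium, at 129, 157 and 293 with cadmium and at 347, 143 and 411 with GSK4716. With DES it stood at 288, 334 and 313, with DES and calcium at 254, 340.1 and 284, and with DES and cadmium at 430.3, 279 and 267. All 9 libraries with DES therefore lay above all 3 controls, while those with either metal alone or with GSK4716 overlapped them. The log2 fold change with DES against control was 0.93 (SE 0.228, adjusted p = 0.0233). This call was lost without control replicate 1, control replicate 2 or DES replicate 2 (adjusted p 0.0973, 0.093 and 0.0851; 0.0225 to 0.132 over all alternatives). DES with calcium was above calcium by 0.69 (SE 0.181, adjusted p = 0.0274), a call that was lost without calcium replicate 1 or 3 or any 1 of the 3 libraries with DES and calcium (adjusted p 0.0762, 0.0613, 0.0537, 0.0817 and 0.0569; 0.022 to 0.149 over all alternatives). The table also lists 4 processed copies of ATF4, the highest at no more than 1.77 FPKM.

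ATF5 (chr19:49928702-49933935), whose RNA is controlled in the same way at the level of translation, had its lowest levels with cadmium. Its levels were 18.5, 17.8 and 18.2 FPKM in the control and 17.3, 16.9 and 17.5 with calcium. On the log2 scale its spread was the smallest among the 10 genes in both groups. With cadmium the levels were 5.40, 5.31 and 3.46, below every one of the other 18 libraries. With GSK4716 they spread to 13.8, 24.2 and 11.4, with DES to 16.5, 7.45 and 11.6, with DES and calcium to 13.2, 8.90 and 18.7, and with DES and cadmium to 20.5, 13.9 and 13.2. The 3 cadmium libraries with DES were thus all above the 3 without it. ATF5 was lower with cadmium, by a log2 fold change of -1.95 against control (SE 0.198, adjusted p = 0.0443) and of -1.87 against calcium (SE 0.214, adjusted p = 0.0265). Calcium was given without serum, so against calcium the metal and the medium cannot be told apart. DES with cadmium was above cadmium by 1.73 (SE 0.291, adjusted p = 0.0313). The interaction, the effect of cadmium with DES minus its effect without, was 2.41 (SE 0.416, adjusted p = 0.0274).

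The sizes of these ATF5 differences held in every alternative, but the calls did not. Against control the fold change stayed between -2.06 and -1.74, and the call was lost without any 1 control library or cadmium replicate 2 (adjusted p 0.212, 0.194, 0.131 and 0.145; 0.00189 to 0.212 over all alternatives). With total-fragment scaling it was also lost (adjusted p = 0.0523). Against calcium it was lost without any 1 calcium library or cadmium replicate 1 or 2 (adjusted p 0.125, 0.129, 0.0857, 0.0516 and 0.0979; 0.0013 to 0.129 over all). The call of DES with cadmium against cadmium was lost without any 1 cadmium library or replicate 2 or 3 of DES with cadmium (adjusted p 0.082, 0.163, 0.0901, 0.0508 and 0.0811; 0.000551 to 0.163 over all). The interaction stayed between 2.12 and 2.69 and lost its call without any 1 control, cadmium replicate 2 or 3 or DES replicate 2 or 3 (adjusted p 0.0786, 0.0779, 0.0728, 0.0692, 0.0554, 0.0684 and 0.0719; 0.00719 to 0.0786 over all). With DES alone all 3 libraries were below the 3 controls (log2 fold change -0.68, adjusted p = 0.102), which became a call without DES replicate 1 (adjusted p = 0.0177; 0.0177 to 0.384 over all) and with total-fragment scaling or limma-voom. NUP62 on the opposite strand overlaps ATF5, at 8.75 to 19.3 FPKM, and the sources differ on whether strand was kept in library preparation, so fragments of these genes may have been mixed.

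**Figure D1:**
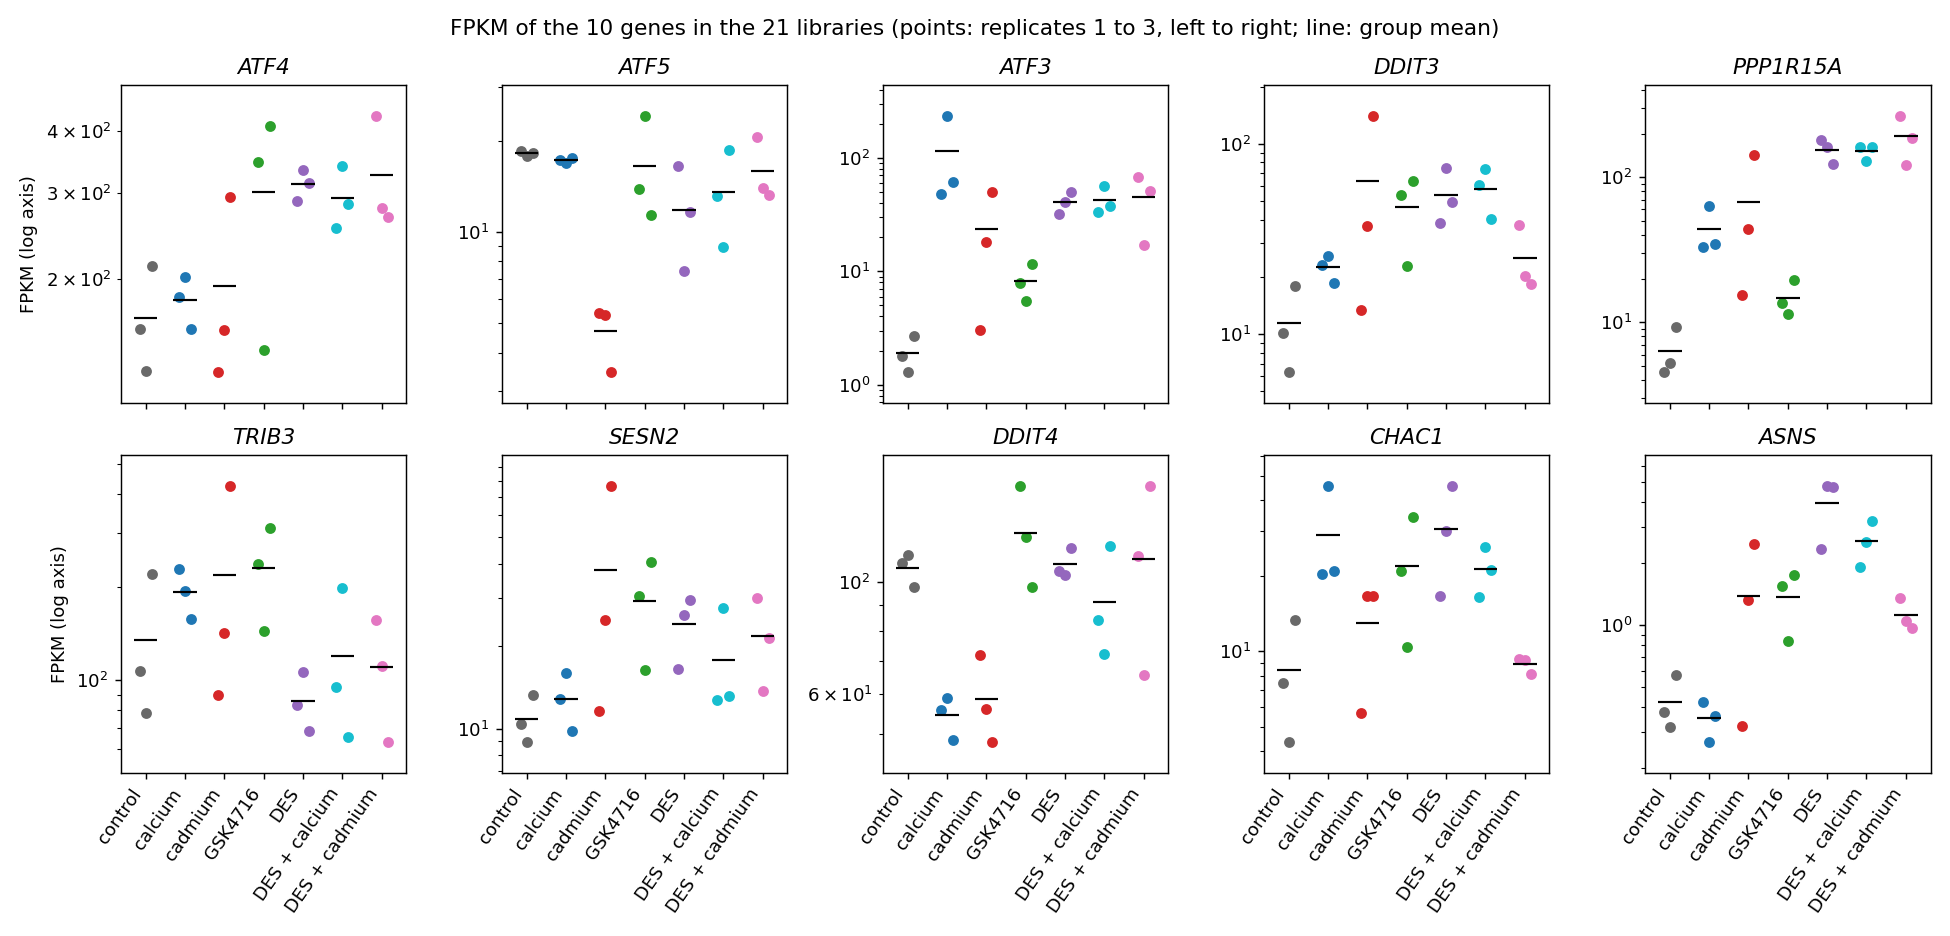
FPKM (log axis) of the 10 genes in each of the 21 libraries by group, with points for replicates 1 to 3 from left to right and a line at the group mean. ATF5 with cadmium (3.46 to 5.40 FPKM) lies below all other libraries, and the 3 DES groups lie above control for ATF3, PPP1R15A and ASNS.

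ATF3 (chr1:212565334-212620777) is a stress-induced factor that feeds back on ATF4 targets. The ratio of its highest to its lowest group mean was the largest of the 10 genes, although without calcium replicate 2 that of PPP1R15A was larger. Control libraries held 1.78, 1.30 and 2.67 FPKM, calcium 48.5, 235 and 61.0, cadmium 3.03, 18.2 and 50.1 and GSK4716 7.89, 5.42 and 11.6. The libraries with DES held 31.8, 41.2 and 50.4, those with DES and calcium 33.0, 57.0 and 37.6, and those with DES and cadmium 67.6, 17.1 and 51.5. No treated library overlapped the control, and calcium replicate 2 stood apart from the other 20 libraries. The log2 fold change was 5.52 with calcium (SE 0.625, adjusted p = 0.0123) and 4.39 with DES (SE 0.289, adjusted p = 0.000331). The calcium call was lost without control replicate 1 or 2 (adjusted p 0.0632 and 0.0654; 0.000357 to 0.0812 over all alternatives), and without calcium replicate 2 it held. With cadmium the value was 2.88 (adjusted p = 0.143), which became a call without cadmium replicate 1 (3.97, adjusted p = 0.0286; 0.0286 to 0.433 over all). With GSK4716 it was 2.05 (adjusted p = 0.142). The interaction of calcium with DES was -5.48 (SE 0.704, adjusted p = 0.00446), a call kept in all 19 alternatives (0.00286 to 0.0326). That of cadmium with DES was -2.93 (adjusted p = 0.211) and was called without cadmium replicate 1 (-4.02, adjusted p = 0.0341; 0.0341 to 0.452 over all).

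DDIT3 (chr12:57516588-57521737, minus strand) encodes CHOP, a factor tied to cell death in lasting stress of the endoplasmic reticulum (ER). Its control values were 10.2, 6.34 and 17.9 FPKM. They were 23.2, 25.7 and 18.5 with calcium, 13.5, 37.0 and 141 with cadmium and 53.6, 22.8 and 63.9 with GSK4716. With DES they were 38.4, 74.6 and 49.3, with DES and calcium 60.5, 73.9 and 40.1, and with DES and cadmium 37.2, 20.1 and 18.4. Every treated library was above the controls apart from cadmium replicate 1, and DES with cadmium lay entirely below DES alone. DES raised DDIT3 by a log2 fold change of 2.30 (SE 0.403, adjusted p = 0.0078), and DES with calcium was above calcium by 1.34 (SE 0.252, adjusted p = 0.00935). DES with cadmium against DES was -1.12 (adjusted p = 0.36). With GSK4716 the value was 2.02 (adjusted p = 0.191) and with calcium 1.08 (adjusted p = 0.153), the latter a call without control replicate 3 (adjusted p = 0.0494; 0.0494 to 0.537 over all alternatives). The interaction of cadmium with DES was -3.08 (adjusted p = 0.132) and was called without cadmium replicate 1 (-3.88, adjusted p = 0.0366; 0.0366 to 0.315 over all). MARS and MBD6, on the opposite strand, overlap the ends of DDIT3 at up to 38.4 and 38.6 FPKM, and MIR616 overlaps it on the same strand at 0 to 33.9 FPKM, so fragments of these genes may have been mixed.

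PPP1R15A (chr19:48872392-48876057) encodes GADD34, the stress-induced subunit that brings protein phosphatase 1 to eIF2alpha and so ends the response. It was at 4.56, 5.22 and 9.31 FPKM in the control, 33.3, 63.8 and 34.9 with calcium, 15.6, 44.1 and 141 with cadmium and 13.5, 11.3 and 19.6 with GSK4716. It reached 179.6, 163 and 124 with DES, 161, 129.9 and 163 with DES and calcium, and 266, 122 and 187 with DES and cadmium. All 18 treated libraries were above all 3 controls, and the 9 with DES were above every other library save cadmium replicate 3. The log2 fold change was 4.64 with DES (SE 0.29, adjusted p = 0.000289) and 2.77 with calcium (SE 0.361, adjusted p = 0.0158). The calcium call was lost without control replicate 1 or 2 (adjusted p 0.0735 and 0.0756; 0.00206 to 0.0997 over all alternatives). With cadmium the value was 2.90 (adjusted p = 0.104) and passed the threshold without cadmium replicate 1 (3.68, adjusted p = 0.0333; 0.00431 to 0.322 over all). DES with calcium was above calcium by 1.84 (SE 0.272, adjusted p = 0.00468). The interaction of calcium with DES was -2.80 (SE 0.424, adjusted p = 0.00751) and lost its call with all 7 groups in one fit (adjusted p = 0.0787; 0.00233 to 0.0787 over all). That of cadmium with DES was -2.66 (adjusted p = 0.148), a call without cadmium replicate 1 (-3.44, adjusted p = 0.0338; 0.0338 to 0.34 over all).

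TRIB3 (chr20:362835-397559) encodes a pseudokinase that binds ATF4 and restrains it. Control libraries gave 107.5, 78.5 and 219.9 FPKM, calcium 229, 194 and 158, cadmium 89.98, 142 and 425 and GSK4716 237, 144 and 310.0. DES gave 83.1, 106 and 68.6, DES with calcium 95.5, 198 and 65.7, and DES with cadmium 156, 112 and 63.4. Control replicate 3 was above every library with DES, and the groups overlapped in each comparison that was tested. TRIB3 was called by limma in none of the 11 comparisons with all libraries. For DES with calcium against calcium it was called lower by limma-voom (-1.02, adjusted p = 0.0244) and by limma without replicate 2 of DES with calcium (-1.27, adjusted p = 0.0244; 0.0244 to 0.525 over all alternatives). Its mean was highest with GSK4716 (230.4 ± 83.1 FPKM; SD, n = 3) and lowest with DES (86.0 ± 19.1; SD, n = 3), and its log2 fold change with DES was -0.54 (adjusted p = 0.316), where ATF4 rose.

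SESN2 and DDIT4 both encode proteins that hold back the growth kinase mTORC1. SESN2 (chr1:28259527-28282491) stood at 10.4, 8.95 and 13.2 FPKM in the control, 16.5, 26.0 and 29.5 with DES, 30.5, 16.4 and 40.6 with GSK4716 and 11.6, 24.9 and 77.0 with cadmium. Its range was 9.79 to 16.0 with calcium, 12.7 to 27.5 with DES and calcium and 13.7 to 30.0 with DES and cadmium. The DES and GSK4716 libraries were all above the controls. SESN2 rose with DES by 1.11 (SE 0.259, adjusted p = 0.0196), a call lost without control replicate 1 or 2 or DES replicate 2 or 3 (adjusted p 0.0714, 0.0745, 0.0726 and 0.052; 0.00564 to 0.121 over all alternatives), and its value with GSK4716 was 1.34 (adjusted p = 0.196). DDIT4 (chr10:72273920-72276036) was at 109, 113 and 97.9 FPKM in the control, 55.8, 59.1 and 48.7 with calcium and 71.9, 56.2 and 48.3 with cadmium. All 6 libraries with a metal alone lay below the controls. GSK4716 gave 155, 123 and 98.1 and DES 105, 103 and 117, with ranges of 72.0 to 118 for DES and calcium and 65.7 to 156 for DES and cadmium, so these groups overlapped the control. The log2 fold change of DDIT4 was -0.97 with calcium (SE 0.124, adjusted p = 0.015) and -0.88 with cadmium (adjusted p = 0.07). The calcium call was lost without control replicate 1 or 2 or calcium replicate 1 (adjusted p 0.0835, 0.0756 and 0.0503; 0.00343 to 0.0835 over all), and cadmium was called without cadmium replicate 1 (-1.03, adjusted p = 0.0294; 0.0294 to 0.248 over all). With DES the value was 0.02 (adjusted p = 0.919), and its sign turned with median-ratio and total-fragment scaling and with limma-voom (-0.0027, -0.15 and -0.15). DES with calcium was above calcium by 0.72 (adjusted p = 0.0368), a call lost without any 1 calcium library or replicate 1 or 3 of DES with calcium (adjusted p 0.0877, 0.0725, 0.0987, 0.0848 and 0.0586; 0.0351 to 0.169 over all).

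CHAC1 (chr15:40952962-40956519) encodes an enzyme that breaks down glutathione. Its control values were 7.49, 4.37 and 13.3 FPKM against 20.2, 45.7 and 20.9 with calcium and 16.6, 30.2 and 45.3 with DES. Other groups gave 5.69, 16.6 and 16.6 with cadmium, 20.9, 10.5 and 34.4 with GSK4716, 16.5 to 26.1 with DES and calcium, and 9.37, 9.25 and 8.16 with DES and cadmium. Calcium and DES libraries were all above the controls, whereas those with DES and cadmium lay inside the control range and below all of DES alone. CHAC1 rose with DES by 1.89 (SE 0.482, adjusted p = 0.0267), a call lost without control replicate 1 or 2 or DES replicate 2 or 3 (adjusted p 0.0789, 0.0807, 0.0859 and 0.0748; 0.0108 to 0.182 over all alternatives). With calcium the value was 1.81 (adjusted p = 0.0857), and DES with cadmium against DES was -1.66 (adjusted p = 0.183). The interaction of calcium with DES was -2.25 (adjusted p = 0.0772), called without control replicate 3 or DES replicate 1 (adjusted p 0.0429 and 0.0403; 0.0403 to 0.297 over all).

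ASNS (chr7:97852118-97872542, minus strand) encodes asparagine synthetase, a classic marker of amino acid shortage, and was the lowest of the 10. It held 0.375, 0.319 and 0.571 FPKM in the control, from 30 to 54 fragments a library, and 0.422, 0.270 and 0.361 with calcium. It held 0.321, 1.32 and 2.50 with cadmium, 1.55, 0.835 and 1.75 with GSK4716 and 2.36, 4.79 and 4.73 with DES, where 238 to 400 fragments lay behind each value. With DES and calcium it was at 1.92, 2.54 and 3.23 and with DES and cadmium at 1.35, 1.05 and 0.964. All libraries with GSK4716 or DES were above the controls, and DES with cadmium lay below DES alone. The log2 fold change with DES was 2.92 (SE 0.365, adjusted p = 0.00266), and DES with calcium was above calcium by 2.55 (SE 0.332, adjusted p = 0.00343), both calls kept in all 13 alternatives. The sizes depend on the small number added before the logarithm, and with 1 in place of 0.1 they were 1.76 and 1.39. With GSK4716 the value was 1.47 (adjusted p = 0.172), and DES with cadmium against DES was -1.68 (adjusted p = 0.186). With cadmium alone it was 1.18 (adjusted p = 0.308) and was called without cadmium replicate 1 (1.91, adjusted p = 0.0465; 0.0465 to 0.593 over all). The interaction of cadmium with DES was -2.86 (adjusted p = 0.0971), again called without cadmium replicate 1 (-3.59, adjusted p = 0.0204; 0.0204 to 0.235 over all). ASNSP3, a processed copy of ASNS, reached 1.55 FPKM, and a gene on the opposite strand that overlaps ASNS reached 11.9 FPKM, so the level of ASNS is uncertain by what these share.

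**Figure D2:**
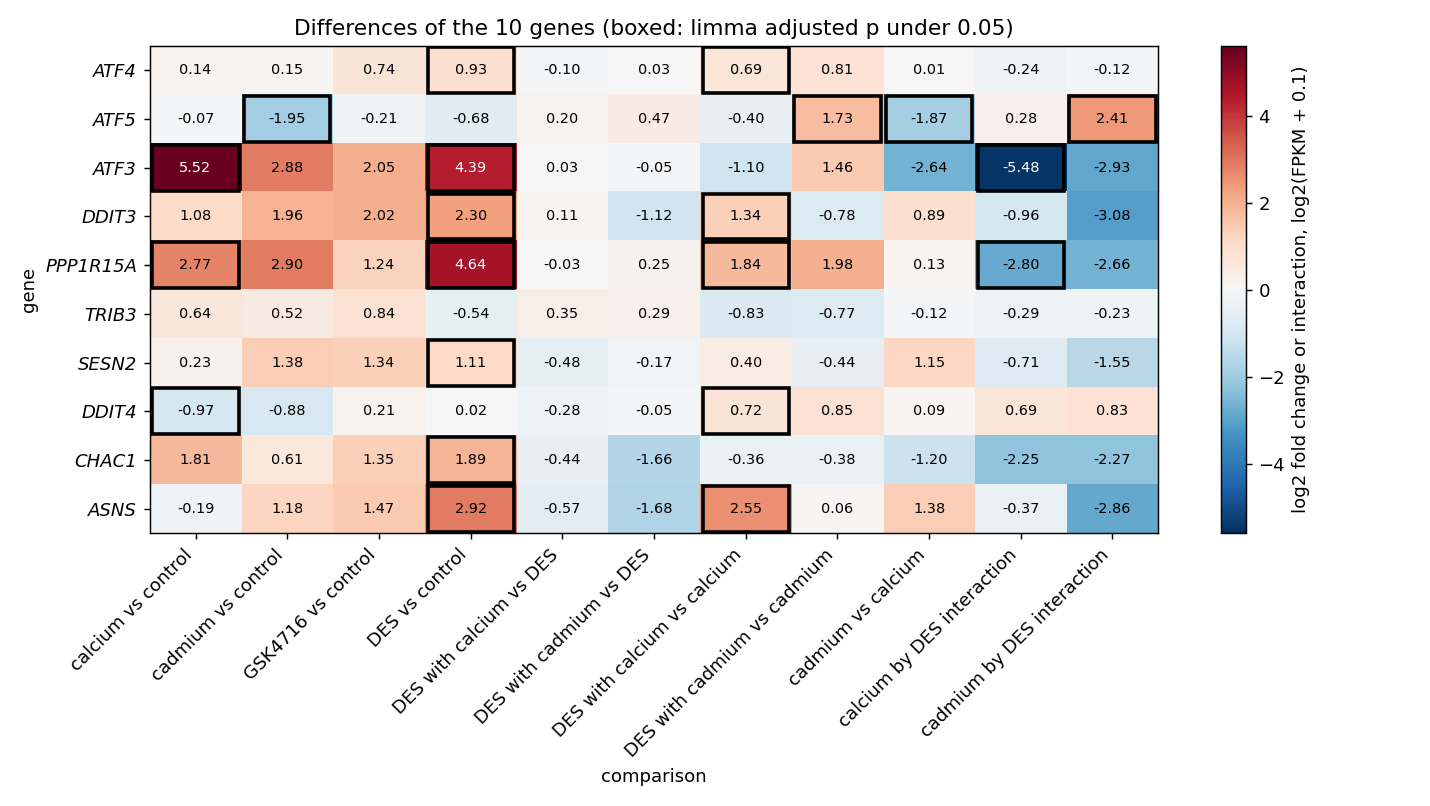
Log2 fold change or interaction on the log2(FPKM + 0.1) scale for the 10 genes (down) in the 11 comparisons (across), with black boxes where the limma adjusted p is under 0.05. DES against control has 7 boxes, all positive (0.93 to 4.64), while ATF5 holds the single box in each of the cadmium comparisons without DES (-1.95 and -1.87). The sign of DDIT4 with DES (0.02) turns with the scaling.

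Within groups the 10 genes did not scatter independently. In the control, cadmium and GSK4716 groups, replicate 3 was the highest library for 8 of the 10, and these were the same 8 each time, ATF4, ATF3, DDIT3, TRIB3, CHAC1, ASNS, SESN2 and PPP1R15A. The same 8 were lowest in cadmium replicate 1 and in GSK4716 replicate 2. In the cadmium and GSK4716 groups ATF5 and DDIT4 ran against them: both were lowest in cadmium replicate 3 and GSK4716 replicate 3 and highest in cadmium replicate 1. Other groups did not keep this split. In the control ATF5 was lowest in replicate 2, with 7 of the 8. Replicate 1 of DES with cadmium was highest for 9 genes, ATF5 among them, and calcium replicate 2 for 7, DDIT4 among them. After the group mean was taken from each log2 value, the 28 pairs among the 8 genes had a median Pearson r of 0.741 over the 21 libraries (0.570 to 0.910). ATF5 had a median r of -0.499 with these 8 and DDIT4 of -0.239, below 0 in all 8 pairs for each. ATF5 and DDIT4 correlated with each other at 0.349. The libraries of a group differ in depth (15246217 to 28424805 fragments in the control) and in scaling, where the library size behind the FPKM was 0.693 times the fragments in replicate 1 of DES with cadmium and 0.960 and 0.933 times in replicates 2 and 3. Their part in these r values was not tested, and the split into 8 and 2 was made after the values were seen.

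The measures of the libraries themselves also differed within groups. The number of genes with at least 1 fragment was 31147 in cadmium replicate 3 against 23403 and 28137 in cadmium replicates 1 and 2, and 28854 in GSK4716 replicate 3 against 22261 and 22373. In the control it was 24055 in replicate 3 against 23941 and 23167. The reverse was found in replicate 1 of DES with cadmium, highest for 9 genes with 16605 against 24202 and 22715, and in calcium replicate 2, highest for 7 with 19106 against 21447 and 24859. The part of library quality in the values of the 8 genes was not tested. In the DES group the highest library varied with the gene, although DES replicate 3 had 35112 genes with a fragment.

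**Figure D3:**
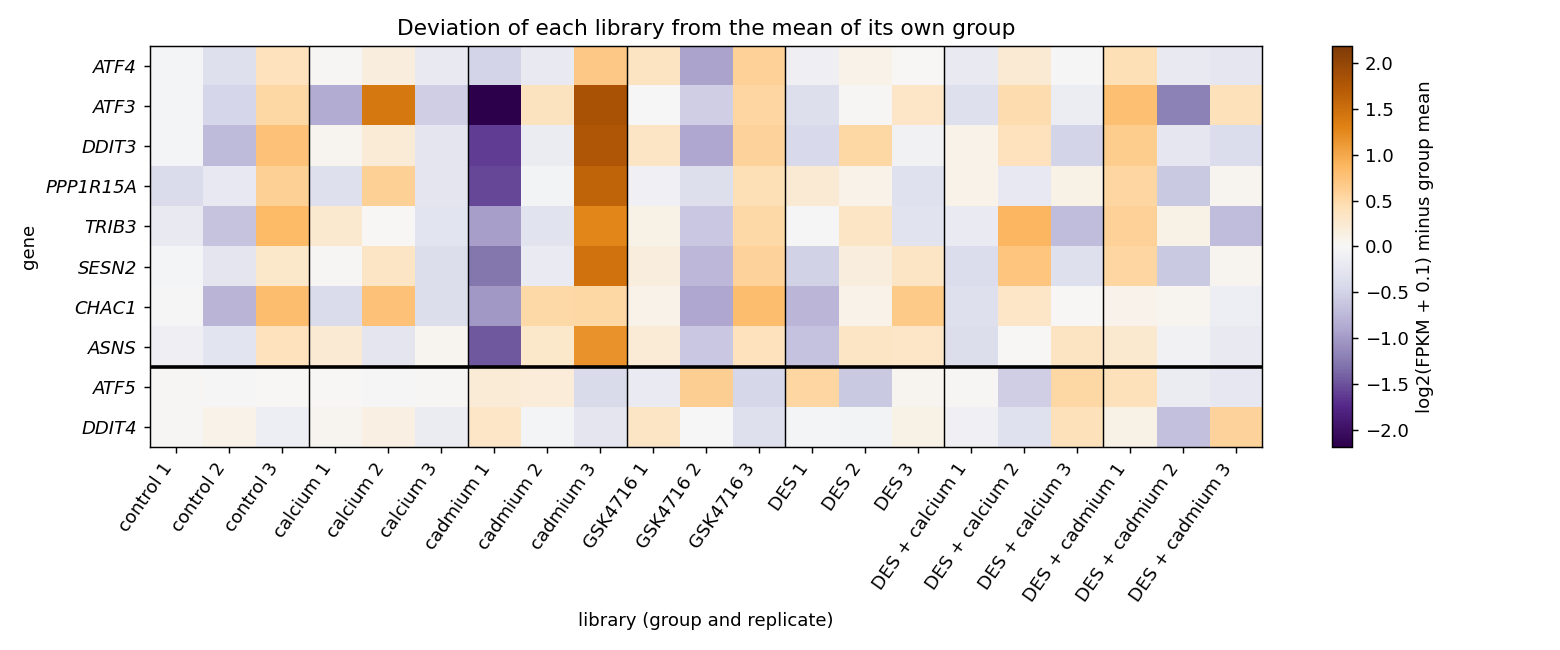
Deviation of each of the 21 libraries (across) from the mean of its own group, on the log2(FPKM + 0.1) scale, for the 8 genes that scatter together (above the thick line) and for ATF5 and DDIT4 (below it). Cadmium replicates 1 and 3 have opposite signs in all 10 genes, and in ATF5 and DDIT4 these signs are swapped.

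The order of the group means put control lowest for 6 of the 10 genes (ATF4, ATF3, DDIT3, CHAC1, SESN2 and PPP1R15A). Calcium was lowest for ASNS and DDIT4, cadmium for ATF5 and DES for TRIB3. With 1 library left out another group could be lowest for ATF4, DDIT4, TRIB3, CHAC1 and ASNS. The highest mean was 60.0 times the lowest for ATF3, 30.1 times for PPP1R15A and 11.3 times for ASNS. Without calcium replicate 2 it was 28.6 times for ATF3, below PPP1R15A. It was 5.55 times for DDIT3, 3.84 for ATF5, 3.66 for CHAC1, 3.48 for SESN2, 2.68 for TRIB3, 2.30 for DDIT4 and 1.95 for ATF4. Neighbours in these orders mostly shared values: all 6 neighbouring pairs overlapped for ATF4, TRIB3, CHAC1 and SESN2. The gaps without overlap were control to GSK4716 for ATF3, cadmium to DES and calcium to control for ATF5, control to calcium for DDIT3, and cadmium to DES with calcium for DDIT4. For ASNS the gap was control to DES with cadmium, and PPP1R15A had gaps from control to GSK4716 and from GSK4716 to calcium.

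Calcium was compared with control to ask which genes answer to the metal. Of the 10 genes, 3 were called, ATF3 and PPP1R15A higher and DDIT4 lower, against 7.12% of all genes tested; 6 of the 10 did not overlap between groups, against 29.6% of all. No call was left without control replicate 1 or 2, where 0.0477% and 0.313% of all genes were called, while 2 were left without calcium replicate 1, where 2.43% of all genes were called. The median log2 fold change of the 10 was 0.44 beside -0.01 for all genes. Other targets of ATF4 divided. Of 8 tested genes for serine, one-carbon, proline and cysteine synthesis, 3 fell and none was above 0, with a list median of -0.66: PHGDH, the entry enzyme of serine synthesis (-1.76, adjusted p = 0.0129), MTHFD2 of the mitochondrial folate cycle (-0.99, adjusted p = 0.024) and PSPH (-0.81, adjusted p = 0.0429). PHGDH went from 29.3, 24.6 and 23.8 FPKM in the control to 9.24, 8.27 and 5.59. Of 10 tested secreted, signalling and growth control targets 4 rose, with a list median of 0.22, among them the stress cytokine GDF15 (4.12, adjusted p = 0.0337), the cell death gene BBC3 (1.71, adjusted p = 0.0166) and the death receptor gene TNFRSF10B (0.94, adjusted p = 0.0223). Of 11 tRNA synthetase genes 1 fell (EPRS, -0.63, adjusted p = 0.0394; list median -0.10), as did 1 of 12 ER chaperones and related targets (PDIA4, -0.63, adjusted p = 0.0359; list median -0.12), shares near that of all genes and not results about these lists. None was called among 7 eIF2alpha kinases and upstream factors, 10 genes of eIF2, eIF2B and its phosphatase, 6 partners and modifiers of ATF4 and 8 amino acid transporters by limma (list medians -0.15, -0.06, 0.04 and 0.17; 3, 2, 1 and 2 genes at an unadjusted p under 0.05, against 23.5% of all genes). In these lists limma-voom, which called 10.8% of all genes, called 1, 0, 1 and 0 genes. It called 6 serine and one-carbon genes lower, 4 secreted and signalling targets higher and 1 lower, 1 tRNA synthetase lower and 1 ER chaperone in each direction. With calcium the kinase EIF2AK2 stood at 1.66 (adjusted p = 0.0735) and CEBPB, a dimer partner of ATF4, at 1.36 (adjusted p = 0.0727). Of the 7 luminal markers KRT8 (1.79, adjusted p = 0.0227) and KRT18 (1.65, adjusted p = 0.0246) rose with calcium, and the summed level of the 7 was 2963 ± 535 FPKM (SD, n = 3) against 1577 ± 181 in the control. KRT19 was the most abundant of these, and the part of the markers in the values of the 10 genes was not tested.

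With cadmium 1 of the 10 genes was called, ATF5, against 0.150% of all genes tested. Without overlap were 4 of the 10, against 34.4% of all, a share near that of all genes and not a result about the 10. ATF3 and PPP1R15A were the pair above the control and ATF5 and DDIT4 the pair below. The median log2 fold change of the 10 was 0.90 beside 0.04 for all genes. The count was 5 without cadmium replicate 1 (ATF3, ASNS and PPP1R15A higher, ATF5 and DDIT4 lower), where 10.9% of all genes were called, and 0 without any 1 control library or cadmium replicate 2. In these last settings 0.00681% to 0.0477% of all genes were called. No gene of the 8 related lists was called by limma or by limma-voom. The list medians were 0.17 for the kinases, -0.12 for eIF2 and eIF2B, 0.32 for partners, -0.24 for serine and one-carbon synthesis, 0.68 for transporters, 0.27 for tRNA synthetases, 0.80 for secreted and signalling targets and 0.43 for ER chaperones. At an unadjusted p under 0.05 these lists held 2, 3, 0, 3, 2, 1, 3 and 3 genes, against 25.9% of all genes. Set directly against calcium, cadmium gave 1 call among the 10, again ATF5, against 2.44% of all genes. These groups also differed in serum, so metal and medium cannot be told apart here. ATF5 and CHAC1 did not overlap, a share below the 29.4% of all genes. CHAC1 was lower with cadmium by -1.20 (adjusted p = 0.229). The ATF5 call was lost without any 1 calcium library or cadmium replicate 1 or 2, where 0.0272% to 0.252% of all genes were called. In this comparison MTHFD2 was higher with cadmium (1.06, adjusted p = 0.0356).

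GSK4716 gave no call among the 10 genes with limma, where 0% of all genes were called. At an unadjusted p under 0.05 there were 5 of the 10, against 16.4% of all, and limma-voom on the recovered fragments called 1, ATF3 (adjusted p = 0.0458; 0.0458 to 0.887 over all alternatives), against 0.334% of all. The same 5 genes, ATF3, DDIT3, ASNS, SESN2 and PPP1R15A, were above all controls, against 22.1% of all genes that did not overlap in either direction. The log2 fold change was above 0 in 9 of the 10, all but ATF5, with a median of 1.29 beside 0 for all genes. The other lists held no call by limma either, while limma-voom called 2 secreted and signalling targets and 1 ER chaperone. At an unadjusted p under 0.05 the secreted and signalling targets held 7 of 10 genes (list median 0.81), the ER chaperones 7 of 12 (0.51) and the transporters 4 of 8 (0.83). The kinases (list median 0.16), eIF2 and eIF2B (0.03), ATF4 partners (0.42) and serine and one-carbon genes (0.19) held 2 each and the tRNA synthetases (0.31) held 1.

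DES, which was used as the antagonist, gave the most calls of the comparisons with the control. All 7 called genes rose (ATF4, ATF3, DDIT3, CHAC1, ASNS, SESN2 and PPP1R15A), against 29.6% of all genes called in either direction, and 8 of the 10 did not overlap, against 48.8% of all. ATF5 was the one below. The median of the 10 was 1.5 beside 0.05 for all genes, and the count fell to 4 without control replicate 1, control replicate 2 or DES replicate 2. Of all genes 13.1%, 14.5% and 16.6% were called in these settings, in that order. The comparisons with the control share its 3 libraries, so their values for a gene are not independent.

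**Figure D4:**
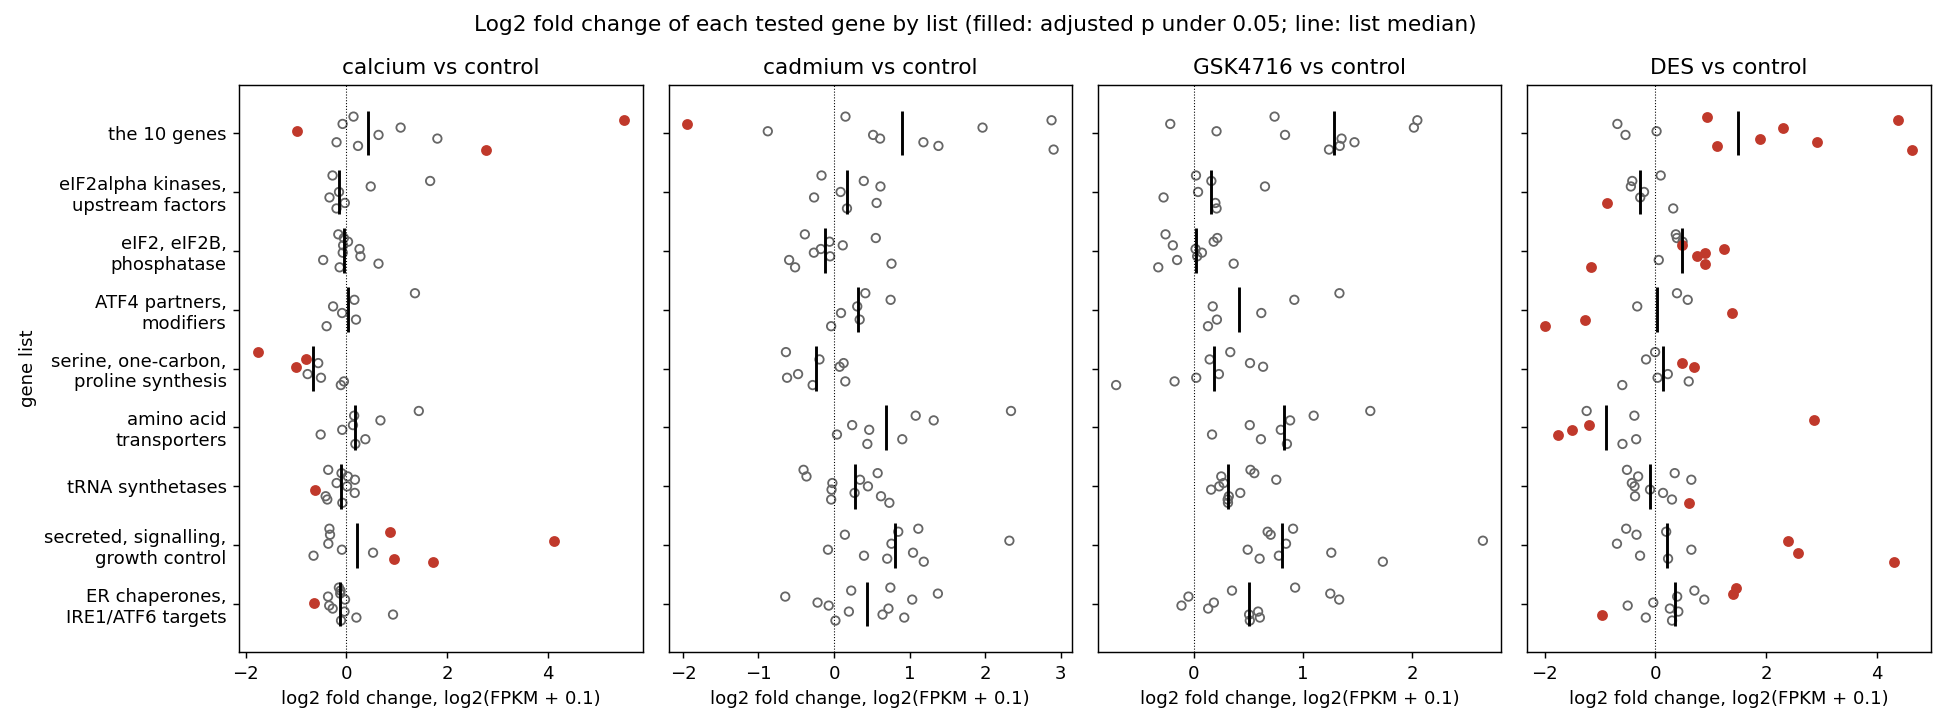
Log2 fold change against control of each tested gene in the 10 genes and in 8 lists of related genes, in 4 panels for calcium, cadmium, GSK4716 and DES; filled points have an adjusted p under 0.05 and lines mark list medians. With DES the median of the 10 genes is 1.5 and that of the amino acid transporters -0.89.

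Among the other genes of the response, the counts called with DES stand beside the 29.6% of all genes. Of 8 amino acid transporters, SLC1A5 (-1.76, adjusted p = 0.00196), SLC1A4 (-1.51, adjusted p = 0.00392) and SLC7A1 (-1.19, adjusted p = 0.00414) fell and SLC3A2, a heavy chain of some other amino acid transporters, rose by 2.87 (adjusted p = 0.00137), with a list median of -0.89. SLC3A2 went from 47.8, 37.1 and 79.2 FPKM to 336, 442 and 375. Of 10 secreted and signalling targets, BBC3 (4.31, adjusted p = 0.000274), KLHL24 (2.57, adjusted p = 0.00255) and GDF15 (2.40, adjusted p = 0.0267) rose (list median 0.21). The 10 genes of eIF2, eIF2B and the phosphatase gave 5 rises and 1 fall (list median 0.49), with PPP1R15B at 0.90 (adjusted p = 0.0167) and the phosphatase subunit PPP1CA at -1.16 (adjusted p = 0.0132). Of 6 ATF4 partners and modifiers NUPR1 rose (1.38, adjusted p = 0.00897), while BTRC (-1.98, adjusted p = 0.00274) and FBXW11 (-1.26, adjusted p = 0.00375), both parts of the ligase that marks ATF4 for breakdown, fell (list median 0.03). Of 12 ER chaperones and related targets HSPA5 (1.46, adjusted p = 0.00443) and DNAJB9 (1.40, adjusted p = 0.00657) rose and EDEM1 fell (-0.96, adjusted p = 0.0223; list median 0.35). Serine and one-carbon genes gave 2 rises of 8 (MTHFD2 0.70, adjusted p = 0.0495, and SHMT2 0.48, adjusted p = 0.0362; list median 0.13), and tRNA synthetases 1 of 11 (TARS 0.60, adjusted p = 0.0433; list median -0.09). Of the 7 kinases and upstream factors OMA1 fell (-0.86, adjusted p = 0.041; list median -0.27), and none of the 4 kinases EIF2AK1 to EIF2AK4 was called (0.10, -0.42, -0.44 and -0.20; 1 of the 7 genes at an unadjusted p under 0.05, against 43.2% of all genes). The shares called among the secreted and signalling targets, ER chaperones, serine and one-carbon genes, tRNA synthetases and kinases were near or below that of all genes and are not results about these lists. With limma-voom, which called 32.4% of all genes, those called higher and lower were 1 and 4 transporters, 3 and 1 secreted and signalling targets, 4 and 1 genes of eIF2, eIF2B and the phosphatase, 1 and 2 partners, 2 and 2 ER chaperones, 0 and 0 serine and one-carbon genes, 0 and 4 tRNA synthetases and 0 and 2 kinases and upstream factors. Of the 7 luminal markers FOXA1 (-1.17, adjusted p = 0.0155) and GATA3 (-1.11, adjusted p = 0.00774) fell with DES, a share near that of all genes. The list median was -0.04, with 3 of the 7 above 0, at most at 0.69. The summed level of the 7 markers was 1523 ± 382 FPKM (SD, n = 3). In the remaining groups this sum was 1627 ± 48.7 with cadmium, 1425 ± 267 with GSK4716, 2063 ± 423 with calcium on DES and 2173 ± 702 with cadmium on DES (SD, n = 3 each).

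The metals were also compared on a background of DES. With calcium on DES none was called, against 0.136% of all genes, none had an unadjusted p under 0.05, against 13.2% of all, limma-voom called none and none was free of overlap, against 19.9% of all. The median log2 fold change of the 10 was -0.06 beside 0.00 for all genes. With cadmium on DES none was called either, against 0.266% of all, nor by limma-voom, while 3 of the 10 had an unadjusted p under 0.05, against 10.4% of all. These 3, DDIT3, CHAC1 and ASNS, were below DES in all libraries, against 16.2% of all genes without overlap. The median was -0.05 beside -0.04 for all genes.

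The effect of DES was then followed in cells with a metal. In calcium-treated cells 5 of the 10 rose with DES (ATF4, DDIT3, DDIT4, ASNS and PPP1R15A), against 35.1% of all genes called in either direction, and the same 5 did not overlap, against 50.8% of all, so the share without overlap is that of all genes. The median of the 10 was 0.54 beside -0.01. With limma-voom 4 were called higher and TRIB3 lower. The count was 3 without calcium replicate 1 or 3 or replicate 1 or 3 of DES with calcium. Of all genes 23.8%, 28.7%, 22.2% and 29% were called in these settings, in that order. Without filter and with all 7 groups in one fit DDIT3 was not called (adjusted p 0.069 and 0.0974). Of the 7 luminal markers 1 was called lower by limma and 5 by limma-voom, and none higher by either (list median -0.50). Their part in the values of the 10 genes was not tested. The related lists held, called higher and lower, 8 and 1 of 10 genes of eIF2, eIF2B and the phosphatase, 6 and 1 of 12 ER chaperones, 5 and 0 of 8 serine and one-carbon genes, 3 and 1 of 11 tRNA synthetases, 3 and 2 of 10 secreted and signalling targets, 1 and 4 of 8 transporters, 1 and 2 of 7 kinases and upstream factors and 1 and 2 of 6 partners. The shares of the tRNA synthetases and kinases are near that of all genes and are not results about these lists. With limma-voom, which called 39.9% of all genes, these counts were in the same order 5 and 2, 6 and 1, 5 and 0, 2 and 1, 3 and 3, 1 and 5, 1 and 2, and 1 and 2. In this comparison MTHFD2 (2.03, adjusted p = 0.00167) and PHGDH (1.90, adjusted p = 0.00227) rose, HSPA5 rose by 2.30 (adjusted p = 0.00682), and EIF2AK2, the kinase that answers to double-stranded RNA, fell by 1.49 on the log2 scale (adjusted p = 0.0056). In cadmium-treated cells 1 of the 10 was called with DES, ATF5, against 9.89% of all genes, and it alone did not overlap, against 40.0% of all. The median of the 10 was 0.44 beside -0.08. No call was left without any 1 cadmium library or without replicate 2 or 3 of DES with cadmium. Of all genes 4.6% were called without replicate 2 of DES with cadmium and 0% in each of the other settings named. FBXW11 (-1.45, adjusted p = 0.0441), SLC6A9 (-1.08, adjusted p = 0.0431) and ADM2 (-1.97, adjusted p = 0.0319) were the other genes of these lists called by limma, all lower. With limma-voom, which called 12.8% of all genes, 5 transporters, 3 secreted and signalling targets, 2 ATF4 partners and 1 gene each of the kinases, of eIF2 and eIF2B and of the ER chaperones were called lower and none higher. The median log2 fold change of all genes with limma-voom was -0.43 here, and the part of this shift in these calls was not tested.

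The tests of the difference itself gave 2 calls for calcium with DES, ATF3 and PPP1R15A, both negative, against 3.63% of all genes, and 1 for cadmium with DES, ATF5, positive, against 1.18%. ATF3 and PPP1R15A were also called higher with DES alone against control. The median interaction of the 10 was -0.54 for calcium beside -0.02 for all genes, and -1.91 for cadmium beside -0.09. For cadmium 8 of the 10 were negative and ATF5 and DDIT4 positive. For calcium 8 of the 10 were negative as well, the exceptions again being ATF5 and DDIT4. The cadmium count was 5 without cadmium replicate 1, where 2.11% of all genes were called, and 0 without any 1 control, cadmium replicate 2 or 3 or DES replicate 2 or 3. In these last settings 0.102% to 0.334% of all genes were called. Of the other lists, calcium with DES gave calls for PHGDH (1.90, adjusted p = 0.00457), MTHFD2 (1.33, adjusted p = 0.0232), PPP1R15B (-1.24, adjusted p = 0.0342) and BBC3 (-2.85, adjusted p = 0.00311). Scaling by total fragments moved the median of all genes by more than 0.1 in several comparisons, at most to -0.39 for DES with cadmium against cadmium, where ATF5 was still called.

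Calls also moved with the method. Without the filter on low levels, so that 45127 genes shared the adjustment, no call of calcium against control was left (ATF3, DDIT4 and PPP1R15A, adjusted p 0.0812, 0.0702 and 0.0997). All 4 calls of ATF5 were lost as well: cadmium against control (0.0945), cadmium against calcium (0.0779), DES with cadmium against cadmium (0.0923) and the interaction (0.0576). Of the 7 calls for DES, those of ATF4, DDIT3, CHAC1 and SESN2 were lost (0.132, 0.0748, 0.182 and 0.119), which left ATF3, ASNS and PPP1R15A. For DES with calcium against calcium ATF4 and DDIT4 were lost along with DDIT3 (0.149 and 0.169). With the replicate number as a block the 3 calls of calcium were lost (ATF3 0.0503, DDIT4 0.0503, PPP1R15A 0.0553), as were 3 of the 4 of ATF5 (0.128 against control, 0.064 against calcium and 0.0656 for DES with cadmium against cadmium), ATF4 with DES (0.0597) and DDIT4 with DES and calcium against calcium (0.0629). With all 7 groups in one fit ATF4 and SESN2 with DES were lost (0.0554 and 0.121), as was ATF4 with DES and calcium against calcium (0.131). That fit added calls for CHAC1 with calcium (0.047), ATF3 and PPP1R15A with cadmium (0.0304 and 0.00431), ATF3 for cadmium against calcium (0.0345), DDIT4 and PPP1R15A for DES with cadmium against cadmium (0.0176 and 0.00849) and DDIT3, ASNS and PPP1R15A for the interaction of cadmium (0.047, 0.0265 and 0.0498). Of all genes it called 5.06%, 6.99%, 10.6%, 37.2% and 5.46% in these comparisons, in that order. For DES with cadmium against cadmium the main fit called 9.89%, and the 3 of the 10 called in the larger fit are a share below that of all genes. For DES with calcium against calcium ATF4 and DDIT4 lost their calls with total-fragment scaling (0.0516 and 0.112), and DDIT4 also with limma-voom (0.0843), which called CHAC1 with calcium (0.0309). The number of all genes called moved too. Without 1 library it ran from 7 to 758 for calcium (1046 with all libraries), from 1 to 1605 for cadmium (22), from 1930 to 5078 for DES (4340), from 3263 to 4260 for DES with calcium against calcium (5148), from 0 to 1052 for DES with cadmium against cadmium (1453), from 4 to 37 for cadmium against calcium (358), and from 181 to 830 (533) and 15 to 410 (173) for the interactions of calcium and cadmium with DES, so the shares of all genes given above hold for the full set of libraries.

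The genes whose pattern over the 21 libraries was most like each member, by Pearson r of log2 values among 12235 genes with a mean of at least 1 FPKM, were as follows. ATF4 was nearest to SARS (0.884), NUPR1 (0.871) and SHMT2 (0.861), and SESN2 to GARS (0.891), HERPUD1 (0.868) and ARHGEF2 (0.827). DDIT3 was nearest to ERN1 (0.897), HERPUD1 (0.848) and DNAJB9 (0.842). PPP1R15A was nearest to the heat shock genes HSPB1 (0.972) and HSPA1B (0.953) and to PARD6G-AS1 (0.949), and ATF3 to RGCC (0.932), NFIL3 (0.925) and JUN (0.916). For TRIB3 they were TBC1D20 (0.903), FBXO42 (0.874) and STK40 (0.867), for ASNS COG3 (0.897), AC124016.1 (0.877) and SDE2 (0.868), and for CHAC1 FBXO32 (0.826), AKIRIN2 (0.805) and RAP2B (0.783). ATF5 was nearest to BACE1 (0.913), SELENON (0.903) and ECE1 (0.886), and DDIT4 to NCAPD3 (0.831), CNTNAP2 (0.809) and CDCA7L (0.801). No gene occurred for more than 1 member apart from HERPUD1. The libraries share their groups and are not independent, and how much of r lies between groups was not tested.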

How the data were processed

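The authors deposited FPKM values for 58735 genes; the labels name HISAT2 2.0.5, featureCounts 1.5.0-p3 and GRCh38.p14, and the study's methods name DESeq2, which takes counts and not FPKM. FPKM times gene length was a whole multiple of 1 step per library for 100% of values (tolerance 0.05 of a step), which gave back fragments for limma-voom. The size by which the authors divided was 0.693 to 1.15 times the recovered total, a scaling of unstated origin (0.693 in replicate 1 of DES with cadmium; its part in the results was not tested). No pair of libraries had more than 5.27% of genes at the same fragment number.

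Tests used limma 3.58.1 in R 4.3.3 (lmFit, eBayes with a trend, threshold 0.05), with only the groups compared in each fit; the steps were tested on simulated data. Python 3.11.15 with pandas 2.3.3, numpy 2.4.6 and, for plots, matplotlib 3.10.9 did the rest. Named genes are the 10 members, up to 3 called rises and 3 called falls per list and comparison with a mean of at least 1 FPKM, EIF2AK1 to EIF2AK4, PPP1R15B, CEBPB, CEBPG, HSPA5 and 3 neighbours per member; any other gene was named after its values were seen. Of the lists, PSAT1, ALDH1L2, FGF21 and INHBE fell under the filter. The members and lists were chosen with earlier results of these data known, and so were the alternatives: a pseudocount of 1, no filter, median-ratio or total-fragment scaling, a fit over all 7 groups, limma-voom on the fragments, the replicate number as a block and each library left out. Equal replicate numbers deviated together (r above 0.1 in all 3 pairs) for DES with calcium against DES (0.132, 0.103, 0.28) and DES with cadmium against DES (0.472, 0.121, 0.313), a pairing read from the data and not from the labels. Promoters are from RefSeq and exons from GENCODE. One luminal marker of the design is not reported here.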

Additional observations from a re-analysis of the deposited data

Results flagged for a closer look

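In 7 genes the effect of a metal differed between cells without and with DES by the interaction test in limma, beside 3.63% of all genes called for calcium and 1.18% for cadmium. For calcium the interaction on the log2 scale was -5.48 for ATF3 and -2.80 for PPP1R15A, both called higher with calcium alone and not called with calcium on DES. Both were also called higher with DES alone against control (4.39 and 4.64). Their means were 41.1 and 155 FPKM with DES and 42.6 and 151 FPKM with DES and calcium. The calcium interaction was -2.85 for BBC3, 1.90 for PHGDH, 1.33 for MTHFD2 and -1.24 for PPP1R15B, 4 of 72 tested genes in the lists of related genes (5.56%), a share near that of all genes. For cadmium the interaction was 2.41 for ATF5, which was below every other library with cadmium alone and not with DES and cadmium, a call kept in 11 of 19 alternatives. The interaction uses 4 groups that include the single control group, and DES came 3 h before the metal, so the order of addition and the combination cannot be told apart. Single outlying libraries were not tested.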

How the results depend on the processing

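The alternatives gave 905 values for 65 differences of single genes: 787 kept direction and side of the threshold, 80 lost a call, 27 gained one and 11 turned sign, none of these called. The 65 were a chosen part of all differences and held every member against control. From the other comparisons they held only differences called, without overlap, at an unadjusted limma p under 0.05 or called in an alternative. The remaining differences were left out, so these counts do not describe them. DDIT4 with DES turned to -0.0027 with median-ratio scaling, -0.15 with total-fragment scaling and -0.15 with limma-voom, and without 1 library it ran from -0.037 to 0.068, with a value of -0.031 without DES replicate 3. Leaving out 1 library, ATF4 ran from -0.024 to 0.33 with calcium and from -0.20 to 0.39 with cadmium, where it was -0.016 without control replicate 2, and TRIB3 from -0.12 to 1.00 with cadmium. ASNS with calcium ran from -0.34 to 0.0015 and ATF5 with GSK4716 from -0.53 to 0.011. The cause was not tested.

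Without the filter 45127 genes were tested, and the number of the 10 genes called went from 3 to 0 for calcium, 1 to 0 for cadmium, 7 to 3 for DES, 5 to 2 for DES in calcium-treated cells, and 1 to 0 for DES in cadmium-treated cells, for cadmium against calcium and for the interaction of cadmium with DES. Of all genes 0.133% were then called for calcium, 0.0842% for cadmium, 4.67% for DES and 5.14% for DES in calcium-treated cells. The share was 0.293% for DES in cadmium-treated cells, 0.144% for cadmium against calcium and 0.321% for the interaction of cadmium with DES. With all 7 groups in one fit 4 of the 10 were called for calcium (5.06% of all genes), 3 for cadmium (6.99%) and 5 for DES (27.6%). For DES with calcium against calcium and DES with cadmium against cadmium 3 each were called. Of all genes 37.1% and 37.2% were called there, so these counts are not results about the 10. Cadmium against calcium gave 2 (10.6% of all genes), the calcium interaction 1 (1.23%) and the cadmium interaction 4 (5.46%). With total-fragment scaling the count was 0 for cadmium (0.0953% of all genes), 8 for DES (30%) and 3 for DES with calcium against calcium (36.1%). With limma-voom it was 4 for calcium (10.8% of all genes), 1 for GSK4716 (0.334%) and 8 for DES (32.4%).

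Leaving out each library gave 0 to 4 calls for calcium, 0 to 5 for cadmium, 4 to 8 for DES, 3 to 5 for DES with calcium against calcium, 0 to 1 for DES with cadmium against cadmium, 0 to 1 for cadmium against calcium, 0 to 5 for the cadmium interaction and 2 to 3 for the calcium interaction. It gave 0 throughout for GSK4716 and for a metal added to DES. Of all genes, 0.0477% to 5.16% were called for calcium, 0.00681% to 10.9% for cadmium and 13.1% to 34.6% for DES. The shares were 22.2% to 29% for DES with calcium against calcium and 0% to 7.16% for DES with cadmium against cadmium. They were 0.0272% to 0.252% for cadmium against calcium, 0.102% to 2.79% for the cadmium interaction and 1.23% to 5.65% for the calcium interaction.

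With the replicate number as a block the count was 0 for calcium (1.77% of all genes), cadmium (0.0204%), DES with cadmium against cadmium (0%) and cadmium against calcium (0.334%). It was 6 for DES (21.2% of all genes) and 4 for DES with calcium against calcium (35.1%). The latter count is a share near that of all genes and is not a result about the members. Outside the comparisons of a metal added to DES at least 1 of the 3 pairs of equal numbers had r under 0.1, so there the libraries share only a number. For a metal added to DES, where the numbers pair the libraries, the block left the count at 0.

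Over all genes, calls moved by more than 1.5 times in several settings: for cadmium from 22 to 148 with a pseudocount of 1, 454 with limma-voom and 1026 with all 7 groups in one fit, and for calcium from 1046 to 60 without the filter and 1586 with limma-voom. Without 1 library they ran from 7 to 758 for calcium, 1 to 1605 for cadmium and 0 to 1052 for DES with cadmium against cadmium. Against the shift of all genes with total-fragment scaling (-0.13 for calcium, -0.12 for DES, -0.24 for DES with cadmium against DES), the sign of DDIT4 with DES is not settled. ASNS rests on as few as 21 fragments a library with calcium, which limits its precision.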
